A study of Mus musculus with 6 samples.

Results

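Iron handling was followed through 10 genes that carry the main steps of uptake, storage, export and hormonal control: Hamp, Slc40a1, Trf, Tfrc, Steap3, Slc11a2, Fth1, Ftl1, Ireb2 and Hmox1. They were chosen by gene symbol, and all 10 were found among the 37576 genes of the count table and had enough reads to be tested. The livers came from C57BL/6 mouse embryos at embryonic day 12.5, when the liver is the main site of red cell formation. The mutant embryos carried the editing-deficient ADAR1 change on both alleles (Adar1E861A/E861A, here E861A; libraries 6, 16 and 19, all male). The controls were wild type (library 2, male, and libraries 15 and 17, female). ADAR1 deaminates adenosines of paired RNA to inosines, and E861A is a change in its catalytic domain. RNA was taken from dispersed cells of the whole organ, so erythroid cells, hepatoblasts, macrophages and other cells were measured together, and fewer cells of a type and less RNA per cell cannot be told apart. The labels do not name litters, so p-values measure only the spread between these samples.

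Iron travels in plasma bound to transferrin (Trf) and enters cells through the transferrin receptor (Tfrc). In the endosome the reductase Steap3 turns ferric into ferrous iron, and the transporter Slc11a2 (DMT1) carries it into the cytosol; developing red cells depend on this route for haem. Excess iron is stored in ferritin, built from heavy (Fth1) and light (Ftl1) chains, and leaves the cell through ferroportin (Slc40a1). Hepcidin (Hamp), a peptide hormone made by hepatocytes, binds ferroportin and causes its degradation. Iron regulatory proteins, of which Ireb2 encodes the second, bind hairpins called iron-responsive elements in messenger RNAs: binding in the 5' untranslated region blocks translation, and binding in the 3' untranslated region protects the message from decay. Haem oxygenase 1 (Hmox1) breaks haem down and frees its iron.

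Translation and message stability were not measured here. The hairpins found in 5 of the 10 members are printed to show on which side of the coding region each lies. They were searched in GENCODE M1 transcripts as an unpaired C, any 5 bases and the loop bases CAGTG, with all 5 flanking stem bases paired, and each one below matched the NCBIM37 genome. The capitals mark the unpaired C and the 6-base loop.
Fth1, 5' untranslated region, chr19:10057220-10057249, plus strand: gtttcctgCttcaaCAGTGCttgaacggaa
Ftl1, 5' untranslated region, chr7:52715150-52715179, minus strand: gtgtcttgCttcaaCAGTGTttgaacggaa
Slc40a1, 5' untranslated region, chr1:45982311-45982340, minus strand: tccaacttCagctaCAGTGTtagctaagtt
Tfrc, 3' untranslated region, chr16:32631303-32631332, plus strand: ataattatCggaagCAGTGCcttccataat
Tfrc, 3' untranslated region, chr16:32631682-32631711, plus strand: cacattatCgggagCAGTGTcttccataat
Tfrc, 3' untranslated region, chr16:32631747-32631776, plus strand: gtctatatCggagaCAGTGAtctccatatg
Tfrc, 3' untranslated region, chr16:32631794-32631823, plus strand: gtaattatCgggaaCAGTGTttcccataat
Slc11a2, 3' untranslated region of transcript Slc11a2-002, chr15:100225585-100225614, minus strand: ggagccatCagagcCAGTGTgtttctatgg
The Slc11a2 hairpin pairs at 4 of the 5 stem positions and was found only after the rule was relaxed, a step chosen after the strict search. The strict rule found the motif in 4 of the 10 members and in 1.23% of 22754 genes with coding transcripts, and the relaxed rule in 5 of 10 and in 9.6%. Fth1, Ftl1 and Slc40a1 carried it before the coding region, and Tfrc and Slc11a2 after it.

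Of the 10 members, edgeR called 2 higher in E861A (Hamp and Hmox1), where 7.77% of the 16511 genes tested were called higher. It called 3 lower (Tfrc, Steap3 and Slc11a2), where 4.26% of all genes were called lower. The threshold for a call was an adjusted p of 0.05 over the whole table. DESeq2 called 9.08% of all genes higher and 9.32% lower. Every E861A library lay above every wild-type library for 3 members (Hamp, Trf and Hmox1), a pattern seen in 19.4% of all genes, and below every wild-type library for 5 (Slc40a1, Tfrc, Steap3, Slc11a2 and Ireb2), a pattern seen in 14.5%. Only the ferritin chains Fth1 and Ftl1 overlapped between the genotypes among the 10. The median log2 fold change of the members was -0.22, against 0.04 over all tested genes. Sex was partly tied to genotype, and with sex as a covariate Hamp alone of the 10 remained called, while the calls among all genes were 3.21% higher and 0.236% lower. Levels below are CPM, counts scaled to 1e6 reads after TMM normalisation, in which 1 read is worth 0.0219 to 0.0282 CPM, and fold changes are E861A over wild type.

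**Figure D1:**
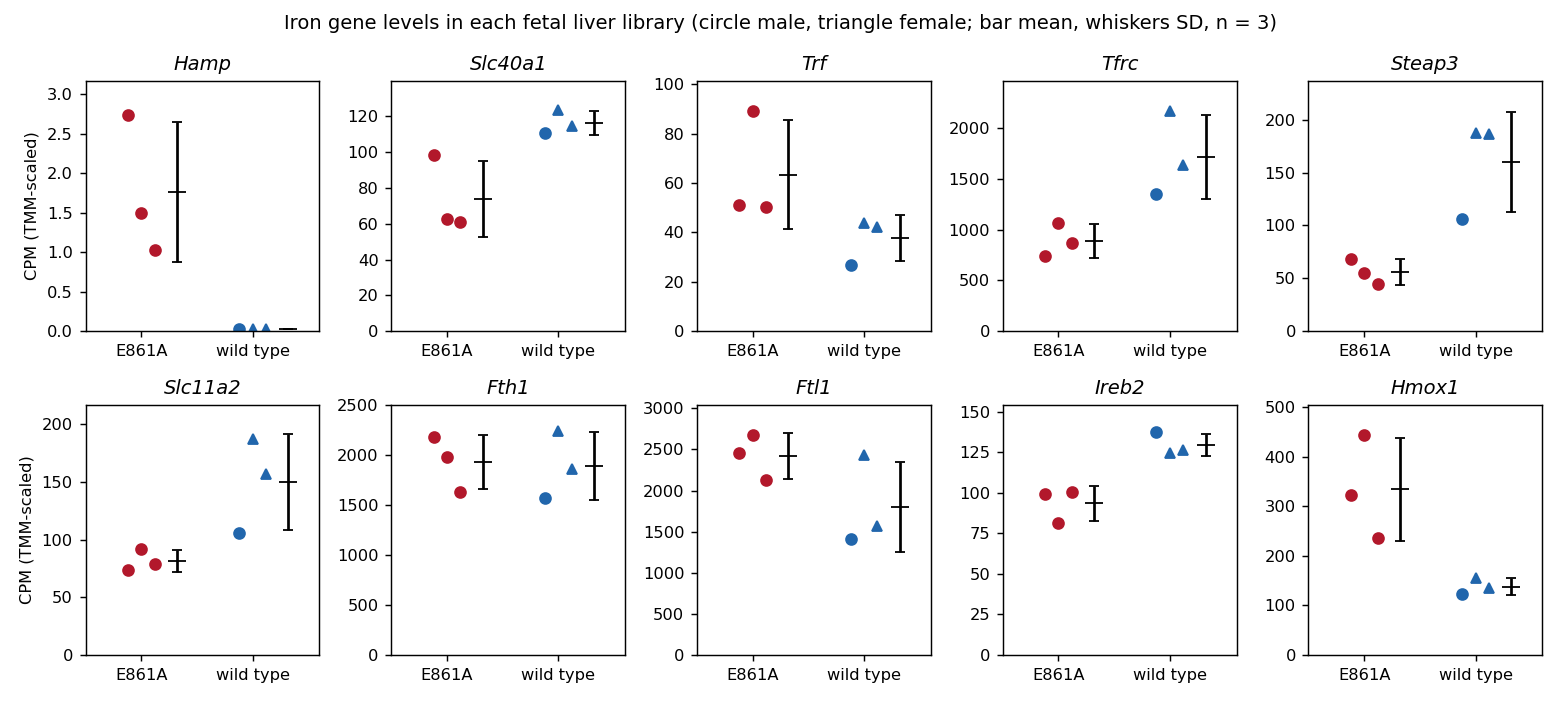
Level of each of the 10 iron genes in CPM (vertical axis, from 0, with a scale of its own in each panel) in the E861A and wild-type libraries; each point is a library, circles are male and triangles female, and the black bar with whiskers is the mean with the SD (n = 3). The E861A points lie above the wild-type points for Hamp, Trf and Hmox1, below them for Slc40a1, Tfrc, Steap3, Slc11a2 and Ireb2, and among them for Fth1 and Ftl1.

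The reads, 35280460 to 43080042 in genes per E861A library and 39192271 to 43733715 per wild-type library, gave 1169 to 104079 reads in each library for every member except Hamp. Markers of the cell types in the organ differed between the genotypes in these libraries. The 20 erythroid markers summed to 5700 to 6171 CPM in E861A and 10330 to 21294 CPM in wild type, and 12 of the 19 tested were called lower (median -1.40). The 19 hepatoblast markers summed to 22628 to 33036 CPM in E861A and 18166 to 22663 CPM in wild type, and 10 were called higher (median 0.81). The 15 macrophage markers summed to 364 to 467 CPM in E861A and 390 to 469 CPM in wild type, with 2 of the 14 tested called higher and 1 lower. Of 12 endothelial markers 4 were called higher and 1 lower, of 13 mesenchymal and stellate markers 1 lower, and of 3 embryonic globins 1 higher. The embryonic globins, made by the first wave of red cells, summed to 13576 to 14499 CPM in E861A and 7031 to 10676 CPM in wild type, apart on the high side, whereas the erythroid markers stood apart on the low side. A list of 12 genes known to respond to cell dissociation had 6 called higher (median 1.55) and summed to 3791 to 3989 CPM in E861A and 2686 to 3919 CPM in wild type. Their mean log2 CPM stood apart, at 6.13 to 6.98 in E861A and 3.93 to 5.49 in wild type. Adjusting for sex, 7 were called higher (median 2.51). When sex was a covariate, 0 erythroid and 0 hepatoblast markers were called, with medians of -0.75 and 0.94. Leaving out 1 library gave 4 (without E861A 16 or wild type 17) to 17 (without wild type 2) erythroid markers called lower, with 7 without E861A 6 and 8 without wild type 15. It gave 1 (without E861A 16) to 14 (without E861A 19) hepatoblast markers called higher, with 2 without wild type 17 and 4 without E861A 6 or wild type 15. Over all genes, 0.879% were called lower without E861A 16, 0.553% without wild type 17 and 8.96% without wild type 2. The share of all genes called higher was 3.02% without E861A 16 and 5.89% without E861A 19. The dissociation genes called higher were 3 without E861A 16 and 2 without wild type 17. The defining marker Alb (hepatoblast) averaged 7570 ± 1230 CPM in E861A and 6386 ± 822 CPM in wild type (SD, n = 3 each). Csf1r (macrophage) averaged 57.6 ± 17.5 CPM in E861A and 56.6 ± 8.52 CPM in wild type. Pecam1 (endothelial) averaged 68.4 ± 11.1 CPM in E861A and 39.1 ± 1.84 CPM in wild type, and Col1a1 (mesenchymal) 289.0 ± 114.0 CPM in E861A and 308.8 ± 189.7 CPM in wild type. Icam4 was the marker listed at 0 reads in every library.

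Hepcidin showed the largest fold difference of the 10 genes. Hamp (ENSMUSG00000050440, chr7:31727390-31729036, minus strand) had 116, 53 and 47 reads in E861A libraries 6, 16 and 19, against 1 read in each of the wild-type libraries 2, 15 and 17. All 3 mutant livers were high, and the genotypes were far apart. In CPM this was 2.74, 1.5 and 1.03 in E861A, with a mean of 1.76 ± 0.886, and 0.0252 ± 0.00191 in wild type (SD, n = 3 each). Since wild type rested on 3 reads in all, the fold is best given as a ratio of summed reads (216 against 3) divided by the TMM-scaled totals, 69.8 with a 95% counting interval of 23.6 to 341, which covers counting error only. The edgeR adjusted p was 0.000733, and 0.0293 with sex as a covariate. In the male libraries alone, with 1 wild-type library, the fitted log2 fold change, which depends on the prior count, was 6.09 (edgeR adjusted p = 0.0686). The neighbouring copy Hamp2 held 0 or 1 read in any library. Relative to the summed hepatoblast markers, Hamp was 0.00618 ± 0.00284% in E861A and 0.000122 ± 5.92e-06% in wild type, a 50.8-fold difference of means with no overlap. Even in E861A it was a rare message among the members, at 4.48 ± 2.26 reads per kilobase of exon and 1e6 reads (RPKM).

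Hepcidin transcription is known to answer to BMP ligands through SMAD proteins and to inflammation through STAT3, and the genes of those inputs were counted. Of 19 genes of hepcidin control by BMP and SMAD, 3 rose, 0 fell and 16 did not pass the test (median 0.32). In the same fit 7.77% of all tested genes were called higher and 4.26% lower. Bmp6, the ligand that signals iron load in the liver, averaged 6.59 ± 2.72 CPM in E861A and 1.82 ± 0.537 CPM in wild type (log2 fold change 1.85, SE 0.38, edgeR adjusted p = 0.0190). Id1, a target gene of BMP signalling, averaged 45.0 ± 7.15 CPM in E861A and 16.9 ± 4.93 CPM in wild type (1.42, SE 0.23). Smad6, an inhibitor that BMP signalling induces, averaged 28.9 ± 0.316 CPM in E861A and 18.4 ± 2.77 CPM in wild type (0.65, SE 0.15). For each of the 3 genes all E861A libraries lay above all wild-type libraries, and with sex as a covariate 0 of the 19 were called (1.46 for Bmp6, 1.0 for Id1 and 0.42 for Smad6). Leaving out 1 library gave 0 (without E861A 16) to 6 (without wild type 2) called genes, with 1 without E861A 19, wild type 15 or wild type 17 and 2 without E861A 6. Over all genes 3.02% were called higher without E861A 16 and 10.4% without wild type 2. Bmp6 lost its call without E861A 16, E861A 19, wild type 15 or wild type 17 (adjusted p = 0.0521 to 0.0992), Smad6 without any library but wild type 2 (0.0582 to 0.177), and Id1 without E861A 16 (0.0564). With all 6 libraries 4 of the 12 endothelial markers, Pecam1 among them, were called higher and 1 lower. The part of endothelial cells in these 3 changes was not tested.

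Of 15 tested genes of hepcidin control by inflammation, out of 18 listed, 3 rose and 0 fell (median 0.28). Positive fold changes were seen for 10 of the 15. Among all tested genes 7.77% were called higher and 4.26% lower. Saa3, an acute-phase protein, averaged 3.79 ± 1.40 CPM in E861A and 0.392 ± 0.0412 CPM in wild type (log2 fold change 3.26, SE 0.39). Lbp, the lipopolysaccharide-binding protein, averaged 48.6 ± 9.41 CPM in E861A and 19.7 ± 3.05 CPM in wild type (1.30, SE 0.19). Cebpa, a transcription factor needed for hepcidin expression in mouse liver, averaged 41.4 ± 8.27 CPM in E861A and 26 ± 2.28 CPM in wild type (0.67, SE 0.18). Saa3 and Lbp were also called with sex as a covariate (edgeR adjusted p = 0.0480 and 0.0249), and Cebpa was not (0.178). Cebpa lost its call without any library but E861A 19 (0.0795 to 0.205), while Saa3 and Lbp kept theirs without each library in turn. In the fit of all libraries 10 of the 19 hepatoblast markers were called higher, and their part in these 3 changes was not tested.

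The exporter that hepcidin acts on stood lower in every E861A library but did not pass the test. Slc40a1 (ENSMUSG00000025993, chr1:45964915-45982439, minus strand) had 98.4, 62.6 and 60.7 CPM in E861A 6, 16 and 19, against 110.5, 123.4 and 114.5 CPM in wild type 2, 15 and 17. The genotypes did not overlap, and E861A 6 lay closest to wild type. The means were 73.9 ± 21.2 CPM in E861A and 116.1 ± 6.62 CPM in wild type, with a log2 fold change of -0.65 (SE 0.20, edgeR adjusted p = 0.0793). DESeq2 called it (adjusted p = 0.0175), as did edgeR without E861A 6 (-0.91, adjusted p = 0.0121). Against the summed macrophage markers, the cells that export iron recovered from red cells, Slc40a1 stood at 18.0 ± 2.70% in E861A and 27.3 ± 1.0% in wild type with no overlap. The mean log2 CPM of these markers stood apart too, at 3.01 to 3.69 in E861A and 3.74 to 3.96 in wild type. Slc40a1 was not set against that mean, so its separation is given for the sum alone. Against the summed erythroid markers it stood at 1.23 ± 0.325% in E861A and 0.809 ± 0.246% in wild type, and the genotypes overlapped.

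Of 9 tested genes of export and plasma haem handling besides Slc40a1, out of 11 listed, 2 rose and 0 fell (median -0.03). Among all tested genes 7.77% were called higher and 4.26% lower. Cp, the ferroxidase ceruloplasmin that oxidises exported iron for transferrin, averaged 7.21 ± 0.805 CPM in E861A and 1.23 ± 0.438 CPM in wild type (log2 fold change 2.54, SE 0.32, edgeR adjusted p = 0.00227). Hpx, the plasma haem scavenger haemopexin, averaged 184.7 ± 39.8 CPM in E861A and 70.3 ± 8.25 CPM in wild type (1.39, SE 0.20, adjusted p = 0.00406). Both are secreted by hepatocytes, and both were also called with sex as a covariate (adjusted p = 0.0364 and 0.0352). Of the 19 hepatoblast markers 10 were called higher in the same comparison and 9, Alb among them, were not, and their part in these 2 changes was not tested.

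The 3 genes of the cellular uptake route fell in E861A. Tfrc (ENSMUSG00000022797, chr16:32609006-32632880, plus strand) had 735.1, 1061 and 863.9 CPM in E861A 6, 16 and 19, against 1346, 2165 and 1636 CPM in wild type 2, 15 and 17. All E861A livers were low, and the male wild-type liver was the lowest of the wild-type livers. The means were 886.7 ± 164.1 CPM in E861A and 1716 ± 415.5 CPM in wild type (log2 fold change -0.95, SE 0.23, edgeR adjusted p = 0.0330). The sex-adjusted log2 fold change was -0.60 (adjusted p = 0.279). The call was also lost on leaving out any of E861A 6, E861A 16, E861A 19, wild type 15 or wild type 17 (log2 fold change -1.16 to -0.75, adjusted p = 0.0523 to 0.114).

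Steap3, the endosomal ferrireductase (ENSMUSG00000026389, chr1:122087334-122169282, minus strand), had 68.5, 54.7 and 44.8 CPM in E861A 6, 16 and 19, against 105.7, 187.2 and 186.9 CPM in wild type 2, 15 and 17. The mutant livers were all low, and the female wild-type livers stood above the male one. The log2 fold change was -1.51 (SE 0.26, edgeR adjusted p = 0.0104), the largest fall of the 10 genes. Adjusted for sex it was -0.92 (adjusted p = 0.0945). Without E861A 16 it was -1.54 (adjusted p = 0.0577).

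Slc11a2, the DMT1 transporter (ENSMUSG00000023030, chr15:100218329-100255503, minus strand), had 74.0, 92.1 and 78.4 CPM in E861A 6, 16 and 19, against 105.6, 187.4 and 156.8 CPM in wild type 2, 15 and 17. The genotypes did not overlap, although wild type 2 lay closer to the E861A livers than to wild type 15. The means were 81.5 ± 9.39 CPM in E861A and 149.9 ± 41.3 CPM in wild type (log2 fold change -0.88, SE 0.22, edgeR adjusted p = 0.0390). Adjusted for sex it was -0.37 (adjusted p = 0.35). The call was lost on leaving out any of E861A 6, E861A 16, E861A 19, wild type 15 or wild type 17 (log2 fold change -1.03 to -0.69, adjusted p = 0.0696 to 0.150). An antisense gene, Gm5475, covers 402 of its 6354 exon bases and held 0 to 6 reads a library.

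The erythroid markers fell in the same libraries as Tfrc, Steap3 and Slc11a2. As a share of the summed erythroid markers, Tfrc stood at 14.8 ± 2.64% in E861A and 11.4 ± 1.45% in wild type, and Steap3 at 0.929 ± 0.168% in E861A and 1.06 ± 0.199% in wild type, with overlap for both genes. Slc11a2 stood at 1.36 ± 0.145% in E861A and 0.990 ± 0.0975% in wild type, with every E861A library higher. Relative to the erythroid marker sum, therefore, none of the 3 genes stood apart on the low side, and Slc11a2 stood on the high side. The mean log2 CPM of the erythroid markers was 7.03 to 7.22 in E861A and 7.78 to 8.68 in wild type. The 3 genes were not set against that mean, so these positions are given for the sum alone.

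**Figure D2:**
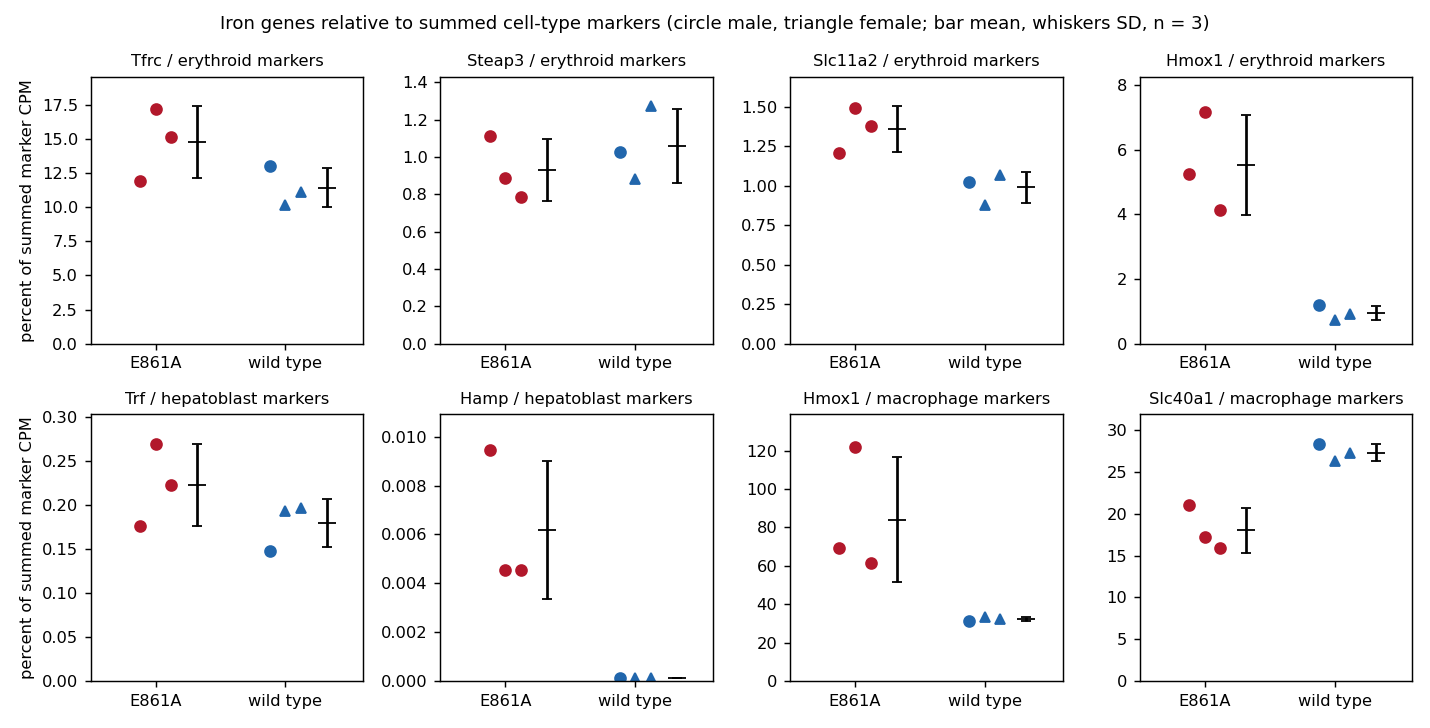
Level of a gene as a percent of the summed CPM of a cell type's markers (vertical axis, from 0) in each E861A and wild-type library; circles are male, triangles female, and the black bar with whiskers is the mean with the SD (n = 3). Tfrc, Steap3 and Trf overlap between the genotypes, Slc11a2 relative to erythroid markers is higher in E861A, and Slc40a1 relative to macrophage markers is lower.

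Trf, the plasma iron carrier made by hepatocytes (ENSMUSG00000032554, chr9:103106331-103132774, minus strand), had 51.0, 89.0 and 50.4 CPM in E861A 6, 16 and 19, against 26.9, 43.9 and 42.4 CPM in wild type 2, 15 and 17. Every E861A library was higher, and E861A 16 was the highest. The log2 fold change was 0.75 (SE 0.28, 95% interval 0.20 to 1.30) and did not pass the test over all genes (edgeR adjusted p = 0.133). With sex as a covariate it was 1.24 (adjusted p = 0.136), and without E861A 16 it was 0.37. As a share of the summed hepatoblast markers Trf stood at 0.223 ± 0.0469% in E861A and 0.18 ± 0.0275% in wild type, with overlap. Its level is uncertain, since 2108 of its 3310 exon bases (63.7%) are shared with the overlapping gene Gm20425, which held 1 read in all.

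Of 15 other uptake genes, 4 rose, 1 fell and 10 did not pass the test (median 0.20). Over all tested genes 7.77% were called higher and 4.26% lower. Steap4, a ferrireductase of the Steap family known to be induced by inflammation, averaged 6.07 ± 0.985 CPM in E861A and 0.860 ± 0.355 CPM in wild type (log2 fold change 2.81, SE 0.36, edgeR adjusted p = 0.00249), and was the only one of the 15 called with sex as a covariate (2.26, adjusted p = 0.0317). Mfi2, the transferrin relative melanotransferrin, averaged 2.45 ± 1.19 CPM in E861A and 0.503 ± 0.123 CPM in wild type. Steap1 averaged 7.51 ± 1.93 CPM in E861A and 3.65 ± 0.3 CPM in wild type. The 2 plasma membrane carriers of iron not bound to transferrin moved in opposite directions. Slc39a14 (ZIP14), prominent in hepatocytes, averaged 45.0 ± 6.08 CPM in E861A and 29.3 ± 2.04 CPM in wild type (0.62, SE 0.14, adjusted p = 0.0312). Slc39a8 (ZIP8) averaged 109.5 ± 32.6 CPM in E861A and 228.8 ± 50.8 CPM in wild type (-1.06, SE 0.26, adjusted p = 0.0341), and lost its call without E861A 16, E861A 19, wild type 15 or wild type 17 (adjusted p = 0.0676 to 0.136). Slc39a14 lost its call without the same 4 libraries (adjusted p = 0.0631 to 0.190) and with no filter on low counts (0.0568). Mfi2 lost it without E861A 16, wild type 15 or wild type 17 (0.0543 to 0.0740), and Steap1 without any library but E861A 19 (0.0538 to 0.18).

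The ferritin chains were the most abundant members per length and did not pass the test. Fth1 (ENSMUSG00000024661, chr19:10057193-10059582, plus strand) had 2178, 1980 and 1636 CPM in E861A 6, 16 and 19, against 1571, 2242 and 1860 CPM in wild type 2, 15 and 17. The genotypes were mixed along the range. The means were 1931 ± 274.5 CPM in E861A and 1891 ± 337.0 CPM in wild type. The log2 fold change was 0.03 with a 95% interval of -0.35 to 0.41 (edgeR adjusted p = 0.945). The interval holds changes of either sign and is not a limit of what the test could call. The sign of the log2 fold change turned under other scalings (-0.01 with RLE size factors).

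Ftl1 (ENSMUSG00000050708, chr7:52713314-52715254, minus strand) had 2460, 2673 and 2125 CPM in E861A 6, 16 and 19, against 1414, 2428 and 1569 CPM in wild type 2, 15 and 17. Only wild type 15 reached into the E861A range. The log2 fold change was 0.42 (SE 0.23, 95% interval -0.03 to 0.88, edgeR adjusted p = 0.287). It was 0.77 with sex as a covariate (adjusted p = 0.229), 0.27 without wild type 2 and 0.70 without wild type 15. Ferritin copies held few reads, with 0 to 4 in a library for Ftl2 and 2 to 6 for Fth-ps2, although reads that fit several copies may have been handled in ways not given in the sources used here.

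Of 10 tested genes of storage and cell iron handling besides ferritin, out of 12 listed, 1 rose and 0 fell (median -0.37). Among all tested genes 7.77% were called higher and 4.26% lower. The gene that rose was Slc25a28 (mitoferrin 2), a mitochondrial iron importer, with 35.5 ± 3.97 CPM in E861A and 19.9 ± 1.62 CPM in wild type (log2 fold change 0.84, SE 0.14, edgeR adjusted p = 0.0102); its call was lost without E861A 16 (0.0659) or wild type 17 (0.0668). The other 9 had negative fold changes that did not pass edgeR, and DESeq2 called 4 of the list lower. With sex as a covariate 0 of the 10 were called and the median was -0.12. Without wild type 2 edgeR called 5 lower.

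Ireb2, the gene of iron regulatory protein 2 (ENSMUSG00000032293, chr9:54711562-54760341, plus strand), had 99.0, 81.1 and 100.6 CPM in E861A 6, 16 and 19, against 137.5, 124.4 and 126.4 CPM in wild type 2, 15 and 17. The genotypes did not overlap, and the male wild-type liver was the highest. The log2 fold change was -0.47 (SE 0.14, edgeR adjusted p = 0.0713), and -0.55 with sex as a covariate (adjusted p = 0.161). It passed with DESeq2 (adjusted p = 0.00633) and, in edgeR, with RLE factors (0.0476) or a minimum of 1 CPM in 3 libraries (0.0448). The protein is regulated mainly through its stability, which these data do not measure.

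Of 8 other genes of the iron regulatory protein system, edgeR called 0 in either direction (median -0.22), and DESeq2 called 2 lower. The smallest p belonged to Alas2, the erythroid enzyme that starts haem synthesis and whose message carries an iron-responsive element, with 449.9, 473.5 and 471.2 CPM in E861A 6, 16 and 19, against 658.3, 1611 and 849.6 CPM in wild type 2, 15 and 17 (log2 fold change -1.16, SE 0.32, edgeR adjusted p = 0.0539). Cul1 and Skp1a, subunits of the ubiquitin ligase that targets iron regulatory protein 2, had log2 fold changes of -0.32 and -0.34 (adjusted p = 0.183 and 0.283).

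Hmox1 rose in E861A. The gene (ENSMUSG00000005413, chr8:77617490-77624495, plus strand) had 323.2, 442.6 and 235.4 CPM in E861A 6, 16 and 19, against 122.4, 155.4 and 134.8 CPM in wild type 2, 15 and 17. All E861A libraries were higher, and they were spread more widely than the wild-type ones. The means were 333.7 ± 104.0 CPM in E861A and 137.5 ± 16.7 CPM in wild type, a 2.43-fold difference (log2 fold change 1.28, SE 0.24, edgeR adjusted p = 0.0141). The sex-adjusted log2 fold change was 1.45 (adjusted p = 0.0950). The call was lost without E861A 16 (0.97, adjusted p = 0.0584) and without wild type 17 (1.26, adjusted p = 0.0748). Against the summed macrophage markers Hmox1 stood at 84.1 ± 32.8% in E861A and 32.2 ± 0.888% in wild type, and against the erythroid markers at 5.52 ± 1.54% in E861A and 0.944 ± 0.229% in wild type, with no overlap in either. Of the 12 dissociation genes 6 were called higher in the same comparison (median 1.55), with mean log2 CPM apart between the genotypes and sums that overlapped, and their part in the rise of Hmox1 was not tested.

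NRF2, a transcription factor of the oxidative stress response, is known to induce Hmox1. Of 21 genes listed as its targets or as partners of haem breakdown, 3 rose, 0 fell and 18 did not pass the test (median 0.05). Over all tested genes 7.77% were called higher and 4.26% lower. Positive fold changes were seen for 11 of the 21. Slc7a11, the cystine importer, averaged 18.8 ± 2.33 CPM in E861A and 2.01 ± 0.700 CPM in wild type (log2 fold change 3.23, SE 0.29, edgeR adjusted p = 0.000394). Osgin1, an oxidative stress response gene, averaged 79.8 ± 19.1 CPM in E861A and 15.9 ± 2.06 CPM in wild type (2.33, SE 0.21). Gstm1, a glutathione transferase, averaged 261.1 ± 52.1 CPM in E861A and 101.7 ± 8.91 CPM in wild type (1.36, SE 0.19). All 3 were also called with sex as a covariate (adjusted p = 0.00268, 0.00959 and 0.0328).

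Counted once each over these 7 lists, 16 of the 96 genes tested (16.7%) were higher in E861A and 1 (1.04%) was lower, with a median log2 fold change of 0.08, against 7.77% higher, 4.26% lower and a median of 0.04 over all tested genes. Of the 16, 3 came from each of the BMP and SMAD, inflammation and NRF2 lists, which had 19, 15 and 21 tested genes. The 15 other uptake genes gave 4, the 9 of export and plasma haem 2 and the 10 of storage 1. The lists differ in size, so these counts do not set signalling and stress genes apart from transport genes. With sex as a covariate 8 of the 96 were called higher and 0 lower.

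**Figure D3:**
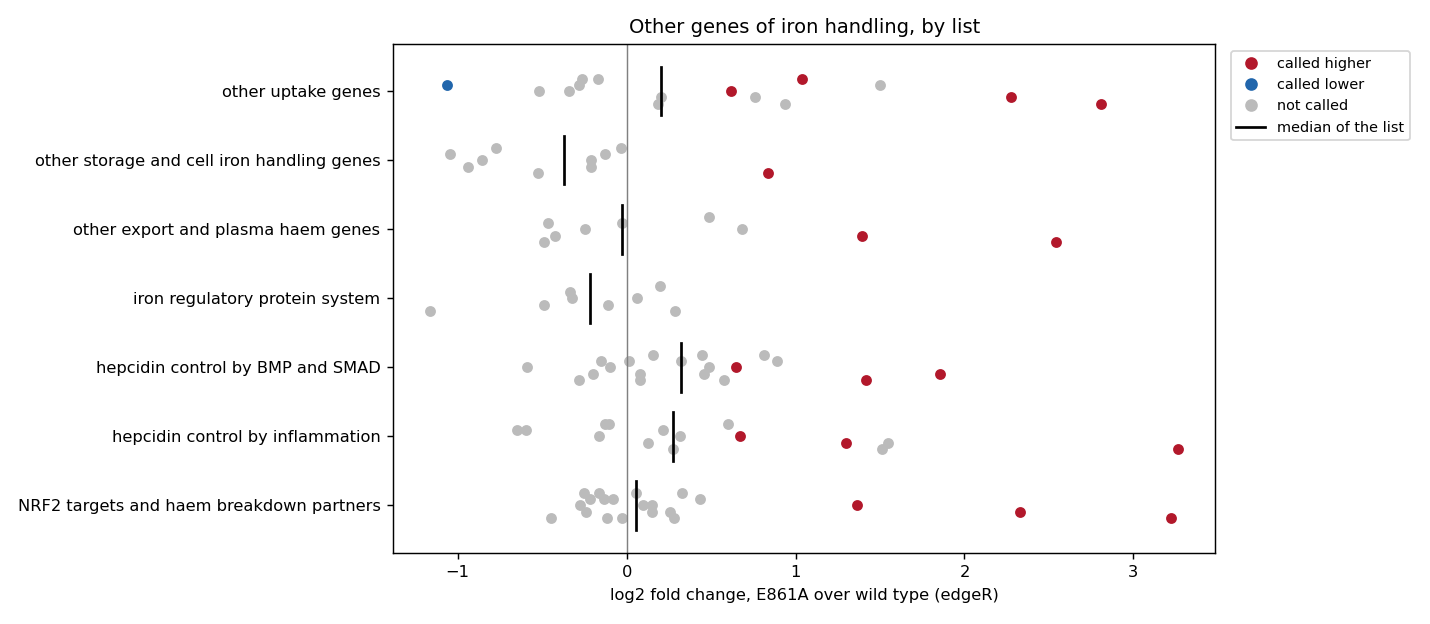
Log2 fold change of each tested gene of the 7 lists, E861A over wild type (horizontal axis), with red points called higher, blue points called lower, grey points not called and a black line at the median of the list; points are set at different heights only to keep them apart. The medians lie between -0.37 and 0.32, and the called genes are mostly on the positive side.

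**Figure D4:**
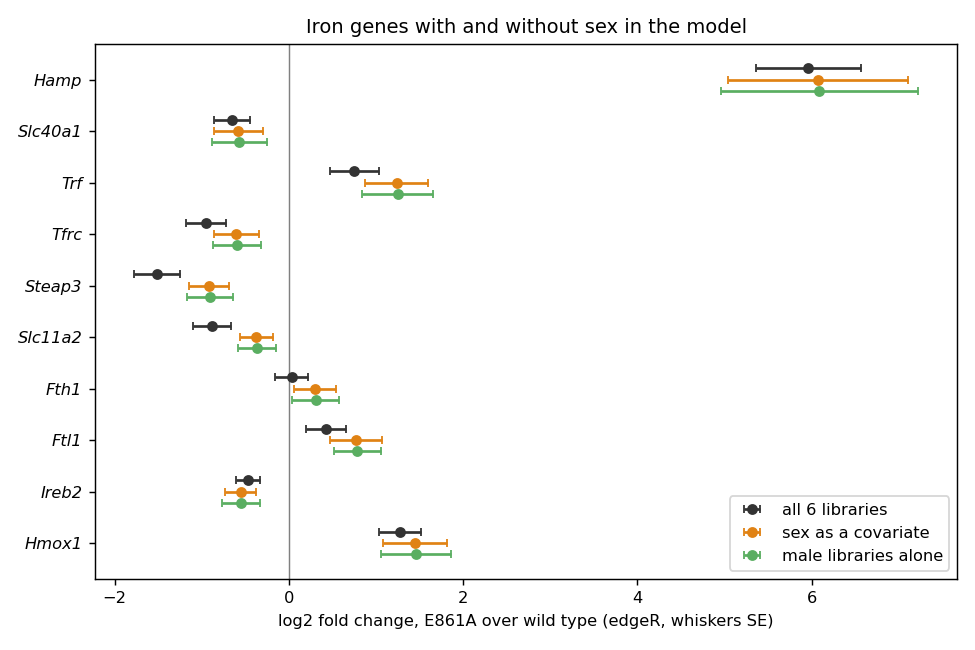
Log2 fold change of the 10 iron genes, E861A over wild type (horizontal axis, whiskers SE), from the fit of all 6 libraries, the fit with sex as a covariate, and the male libraries alone. Signs were the same in the 3 fits, while Tfrc, Steap3 and Slc11a2 lay closer to 0 with sex in the model (-0.60, -0.92 and -0.37).

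Per length of exon, the order of the levels in E861A was Fth1 (2230 ± 316.9 RPKM), Ftl1 (1806 ± 206.0), Hmox1 (154.4 ± 48.1), Tfrc (143.4 ± 26.5), Slc40a1 (21.9 ± 6.28), Trf (19.2 ± 6.69), Ireb2 (16.1 ± 1.86), Slc11a2 (12.8 ± 1.48), Steap3 (9.80 ± 2.08) and Hamp (4.48 ± 2.26). Neighbours in this order overlapped between their libraries except at 3 steps, between Ftl1 and Hmox1, between Tfrc and Slc40a1 and between Steap3 and Hamp. In wild type the order was Fth1 (2184 ± 389.2 RPKM), Ftl1 (1346 ± 407.5), Tfrc (277.4 ± 67.2), Hmox1 (63.6 ± 7.71), Slc40a1 (34.4 ± 1.96), Steap3 (28.0 ± 8.21), Slc11a2 (23.6 ± 6.51), Ireb2 (22.3 ± 1.21), Trf (11.4 ± 2.85) and Hamp (0.0642 ± 0.00486). Tfrc thus stood above Hmox1 in every wild-type library, whereas the 2 genes overlapped in E861A. In wild type Steap3, Slc11a2 and Ireb2 overlapped with each other, and Slc40a1 overlapped with Steap3. The place of Trf in both orders is uncertain, since 63.7% of its exon bases are shared with Gm20425.

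In the authors' deposited table, with the sign turned to E861A over wild type, the same 5 members had an adjusted p under 0.05. Its log2 fold changes were 5.44 for Hamp, 1.25 for Hmox1, -0.93 for Tfrc, -1.48 for Steap3 and -0.83 for Slc11a2. The other 5 members had adjusted p from 0.0648 for Slc40a1 to 0.897 for Fth1 in the authors' deposited table.

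Editing was measured at 6012 sites, of which 7 lie in 3 of the members, all in introns. Fisher's exact test called 647 (16.7%) of the 3883 sites covered by 10 or more reads per genotype lower in E861A and 6 higher. Of the 7 sites in iron genes, 4 were called lower and 0 higher. Reads were pooled over the libraries of a genotype in this test, so its p does not include the spread between livers. Slc11a2 held 5 of the 7 sites, all downstream of the hairpin printed above and 834 to 2299 bases past the nearest upstream exon. The intron label is that of the gene and not of the transcript Slc11a2-002, which carries the hairpin. The bases around the sites called lower are printed to show where the edited A (in capitals) lies.
Slc11a2 site 1, chr15:100222145-100222174, minus strand: ggtttttcaagataAggtttctctgtgtag
Slc11a2 sites 4 and 5, chr15:100220686-100220715, minus strand: gaatggcagagcacAcctttAgtcccagta
Tfrc site, chr16:32626087-32626116, plus strand: gagtacattatagctAttttcagacactcc

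Slc11a2 site 1 (position 100222160, 834 bases from the nearest exon) was edited in 0 of 11, 0 of 27 and 0 of 27 reads in E861A 6, 16 and 19, against 11 of 26, 13 of 25 and 16 of 26 reads in wild type 2, 15 and 17. All wild-type livers were edited and no edited read was found in the mutant ones. The pooled level was 0% of 65 reads in E861A, which allows a level of up to 4.62%, and 51.9% of 77 reads in wild type (95% Wilson interval 41.0 to 62.7%, counting error only; Fisher's exact test, two-sided, adjusted p = 1.77e-12). Site 4 (position 100220701) was edited in 0 of 49 reads in E861A, which allows up to 6.12%, and in 20 of 66 reads (30.3%) in wild type (adjusted p = 7.37e-05, Fisher's exact test). The wild-type libraries ranged from 13.0% in library 2 to 54.5% in library 15. Site 5 (position 100220695) was edited in 4% of 50 reads in E861A, both edited reads in library 6, and in 22.4% of 67 reads in wild type (adjusted p = 0.0412, Fisher's exact test). Its call was lost without E861A 16, E861A 19, wild type 15 or wild type 17 (adjusted p = 0.116 to 0.346). Sites 2 and 3 of Slc11a2 had 0 edited reads in E861A and 1 of 76 and 5 of 81 in wild type, and were not called.

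The Tfrc site (position 32626102) had 0 edited reads of 157 in E861A and 13 of 247 (5.26%) in wild type (Fisher's exact test, adjusted p = 0.0166). All 13 edited reads came from wild type 15, with 0 of 57 and 0 of 64 in wild type 2 and 17, and without library 15 there was no difference to test (adjusted p = 1). The Hmox1 site had 7 edited reads of 77 in E861A and 0 of 22 in wild type, and was not called (Fisher's exact test, adjusted p = 0.731). The edited reads were 6 of 36 in E861A 16, 1 of 17 in E861A 6 and 0 of 24 in E861A 19. Fth1, Ftl1, Slc40a1, Hamp, Trf, Steap3 and Ireb2 held no site in the table.

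**Figure D5:**
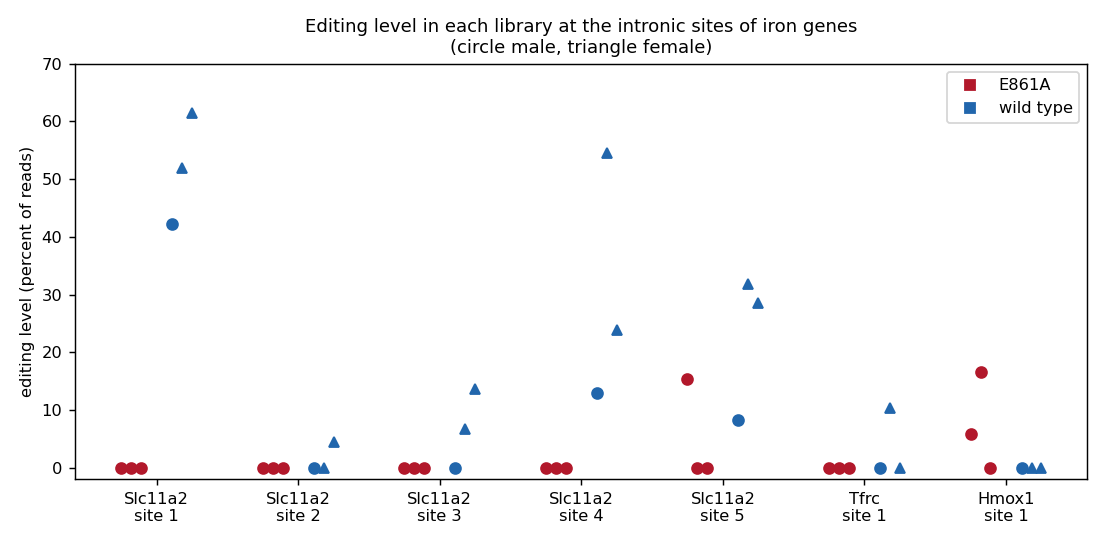
Editing level in percent of reads (vertical axis) at each of the 7 sites in iron genes (horizontal axis) in each E861A and wild-type library; circles are male and triangles female. At Slc11a2 sites 1 and 4 the E861A points lie at 0 and the wild-type points above them, and at the Tfrc site a wild-type library stands alone at 10.3%.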

How the data were processed

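RNA was sequenced from 6 whole fetal livers, 3 E861A and 3 wild type, as standard Illumina libraries, per the labels' protocols. The submitters' processing notes name the tools HTSeq, limma, BWA, edgeR, SAMtools 0.1.19, Cufflinks, Bowtie2 2.1.0.0, Trimmomatic 0.30 and TopHat2 2.0.8 and the builds NCBIM37 and mm9, without tying them to a file. The deposited gene table holds raw counts of reads in 37576 genes. The deposited site table holds coverage as read counts and editing levels as a fraction of reads, per the file headers. The authors' deposited comparison table holds log2 fold changes, given as wild type minus E861A, and adjusted p-values, per the file headers; the sign was turned. Strandedness is not given in the sources used here.

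Counts were tested with edgeR 4.0.16 (R 4.3.3; filterByExpr, TMM, robust quasi-likelihood F test) over 16511 genes, with Benjamini-Hochberg adjustment and a threshold of 0.05. Each SE was taken as the fitted log2 difference divided by the root of its F statistic. CPM use TMM-scaled totals, and RPKM divide by merged exon length in GENCODE M1. The script, tested on simulated counts, was run again with RLE and upper-quartile factors, other filters, DESeq2 1.42.0, limma-voom (limma 3.58.1), no robust estimation, sex as a covariate, male libraries alone and each library left out. Edited reads were level times coverage, and sites were compared on pooled reads with Fisher's exact test (SciPy 1.17.1). Positions are in NCBIM37.

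The 10 members and all gene lists were chosen with earlier results of these data known, so their counts are descriptions. Named beside the members were the called genes of each related list and, where a list had none, the 4 with the smallest p; some items under this rule are not reported here. The cell lists were erythroid, embryonic globin, hepatoblast, macrophage, endothelial, mesenchymal and stellate markers and genes of the dissociation response. Older gene symbols were matched through RefSeq synonyms. Replicate numbers come from the sample titles and are not shared between genotypes.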

Additional observations from a re-analysis of the deposited data

How the results depend on the processing

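No paired analysis was possible because no number in the sample titles occurs in E861A and wild type alike. With RLE or upper-quartile factors, other filters, limma-voom or no robust estimation, the members called stayed at 2 higher and 3 or 4 lower. DESeq2 called 5 members lower. With sex as a covariate 1 member was called higher and 0 lower, and in the male libraries alone 0 and 0. Leaving out 1 library gave 1 to 2 members called higher and 0 to 3 lower. Over all genes it gave 3.02% (without E861A 16) to 10.4% (without wild type 2) called higher. The share called lower was 0.553% (without wild type 17) to 8.96% (without wild type 2). Calls over all genes were also fewer with sex as a covariate (3.21% higher, 0.236% lower) and in the male libraries alone. Of the related genes, 16 higher and 1 lower, sex as a covariate left 8 higher and 0 lower, the male libraries 3 and 0, and leaving out 1 library gave 8 to 18 higher and 0 to 10 lower. The count of lower related genes was 3 with RLE factors, 4 with upper-quartile factors, 4 with no filter, 6 with a minimum of 1 CPM in 3 libraries and 9 with DESeq2. Called editing sites in members numbered 4, and 4 with at least 20 reads in each genotype, and 2 to 4 on leaving out 1 library. The log2 fold change of Fth1 was -0.012 with RLE factors, -0.0038 with no filter and -0.012 with DESeq2, and -0.095 to 0.17 on leaving out 1 library. The cause of these shifts was not tested. Sex is carried by 1 male wild-type library, so fits with sex rest on it. Hamp rests on 3 wild-type reads, and editing on 5 to 126 reads a library at each site.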
